A study of Mus musculus with 10 samples.

Results

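The clones described here were the IgM rearrangements with the highest counts in the deep cervical lymph nodes of glioma-bearing mice. A clone was 1 combination of V call, J gene and junction in 1 mouse, and it was called high-count when its best productive IgM heavy-chain row (c_call IGHM) had a deposited count of 100 or more. A combination seen in several mice was assigned to the mouse in which its heavy-chain counts were highest. By this rule 180 IgM rows gave 163 high-count clones of 204573 IgM clones (0.0797%). The other 204410 IgM clones are called lower-count. The clones were thus chosen by their IgM counts, and their sizes are a description with no test.

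Bulk sequencing of B cell receptor transcripts covered 10 C57BL/6 wild-type mice, all carrying intracranial GL261 tumours, a mouse glioma line, with nodes taken on day 20. Anti-CTLA-4 antibody, which blocks an inhibitory receptor of T cells, was given to 5 mice, and isotype IgG to the other 5. No mouse without a tumour was analysed here. RNA came from whole cells of the dissociated nodes with no B cell sort, and 1 library was made per mouse. The replicates are separate mice. Libraries held a total deposited count of 382184 to 790139, of which IgM took 32788 to 79648. Whether a count is a read or a molecule is not given in the sources used here, so limits from a count of 0 cover counting error only.

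IgM is the first antibody class a B cell makes, and resting naive B cells carry it together with IgD. After activation a B cell may divide, replace IgM with IgG, IgA or IgE by class switching, which keeps the V, D and J segments, and mutate its V gene. Cells that secrete antibody hold far more receptor transcript than resting cells. The libraries hold receptor transcripts alone, so no marker of secretion could be read, and the clones are called high-count IgM clones below. More cells of a clone and more RNA per cell cannot be told apart in bulk RNA.

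Rearrangements that lead the results are shown by their junctions, 5′ to 3′ on the coding strand, with the bases aligned to a D gene in capitals and none in capitals where the files name no D gene. They include the largest clone of each treatment, the clone with the most IgG, and clones that recurred between mice. The heavy-chain locus lies on chromosome 12, and no genome build is named in the files.
anti-CTLA-4 1, IGHV1-74, largest clone: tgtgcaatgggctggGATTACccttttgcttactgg
isotype 1, IGHV1-50, largest clone under isotype: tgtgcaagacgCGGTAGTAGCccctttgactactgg
anti-CTLA-4 1, IGHV1-50, most IgG: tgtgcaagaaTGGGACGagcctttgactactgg
anti-CTLA-4 2, IGHV11-2, found in 10 mice: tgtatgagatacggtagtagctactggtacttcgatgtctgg
isotype 3, IGHV11-2, found in 10 mice: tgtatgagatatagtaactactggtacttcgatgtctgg
anti-CTLA-4 2, IGHV11-2, found in 9 mice: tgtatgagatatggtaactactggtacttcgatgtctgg
isotype 4, IGHV3-6, no added bases: tgtgcaagCTATAGTAactttgactactgg

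High-count clones shared between libraries bear on the results below. Of the 163 clones, 77 had a row in more than 1 mouse, with 133 occurrences outside the assigned mouse. In 85 of these the total count was under 5% of that in the assigned mouse. The occurrences were most frequent between mice of 1 group with consecutive replicate numbers. Of anti-CTLA-4 mouse 1, 20 clones were seen in anti-CTLA-4 mouse 2. Likewise 15 of anti-CTLA-4 mouse 3 were seen in anti-CTLA-4 mouse 4, and 10 of isotype mouse 2 in isotype mouse 3. Other mice of a group shared clones too, with 7 of anti-CTLA-4 mouse 1 seen in anti-CTLA-4 mouse 3. No mouse of the other group held more than 2 clones of any 1 mouse. The cause of this sharing was not tested. The IGHV1-50 clone with CDR3 ARMGRAFDY, assigned to anti-CTLA-4 mouse 1, had 353 IgM and 104092 IgG counts there. It had no IgM counts, and 3180, 375, 120 and 43 IgG counts, in anti-CTLA-4 mice 2 to 5.

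A few very large clones and many near the threshold made up the set. The 5 anti-CTLA-4 mice had 32, 8, 19, 12 and 17 high-count clones, 88 in all. The 5 isotype mice had 19, 32, 10, 11 and 3 clones, 75 in all. The ranges of the groups overlapped, and the means were 17.6 ± 9.13 clones in anti-CTLA-4 mice and 15.0 ± 11.1 in isotype mice (SD, n = 5 each).

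The best row count had a median of 197 and a maximum of 8864. It was under 200 in 83 clones and 1000 or more in 23, and those 23 held 65.8% of the IgM counts of all high-count clones. Of the 23, 18 were in anti-CTLA-4 mice and 5 in isotype mice, and 10 of the 18 were in anti-CTLA-4 mouse 1 alone. Just inside the threshold lay clones with best counts of 100, 100 and 101, and just outside it clones with 98, 96 and 94, so no gap separated the sets.

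**Figure D1:**
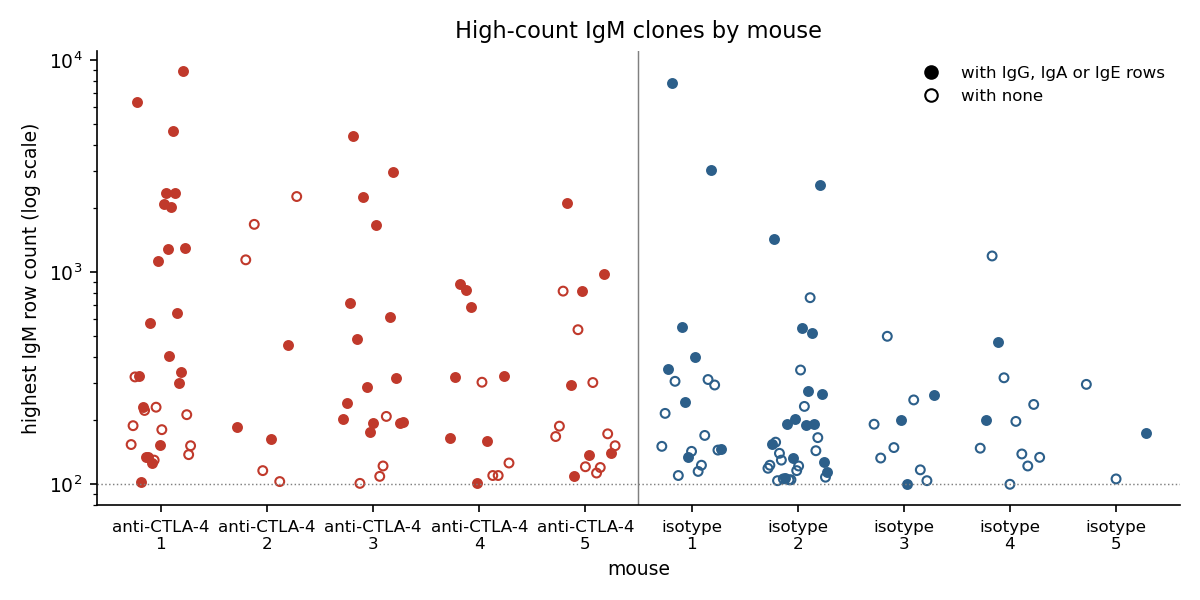
Highest IgM row count (log scale) of each of the 163 high-count clones by mouse, with the threshold of 100 dotted. Filled points also have IgG, IgA or IgE rows and open points have none. Counts reach 8864 in anti-CTLA-4 mouse 1 and 7797 in isotype mouse 1, and stay at or below 296 in isotype mouse 5.

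High-count clones took a large part of the IgM counts in some mice of both groups. The share was 61.6, 18.7, 42.2, 8.96 and 17.2% in anti-CTLA-4 mice 1 to 5. It was 32.8, 13.9, 5.02, 10.2 and 1.52% in isotype mice 1 to 5. The mean was 29.7% ± 21.7 in anti-CTLA-4 mice and 12.7% ± 12.2 in isotype mice (SD, n = 5 each), and the groups overlapped. Pooled over mice, 22.7% of the 471217 IgM counts lay in high-count clones.

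The leading clone of each mouse carried a different V call in each of the 10 mice. In anti-CTLA-4 mice 1 to 5 it used IGHV1-74, IGHV1-15, IGHV9-3, IGHV1-66 and IGHV7-3, with best counts of 8864, 2277, 4398, 877 and 2116. In isotype mice 1 to 5 it used IGHV1-50, IGHV14-1 or IGHV14-2 (a joint call), IGHV1-12, IGHV3-6 and IGHV4-1 with best counts of 7797, 2590, 499, 1194 and 296. The leading clone alone held 14.4% of the IgM counts in anti-CTLA-4 mouse 1 and 17.3% in isotype mouse 1, against 0.795% in isotype mouse 5. The IGHV1-15 leader of anti-CTLA-4 mouse 2 had a CDR3 of only 5 residues, TRVDY, with no D gene named.

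Switched rows, meaning IgG, IgA or IgE rows with the same V call, J gene and junction, were found for 84 of the 163 clones (51.5%). IgG rows were found in 83 clones, IgA in 9 and IgE in 9, and 79 clones had none. Clones with switched rows had a median IgM count of 331.5, against 152 in clones with none, and held 79.9% of the IgM counts of the set. Of the 23 clones with a best count of 1000 or more, 19 had switched rows.

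Within each mouse, switched rows were far more frequent among high-count than among lower-count IgM clones. The share of high-count clones was 68.8, 37.5, 78.9, 66.7 and 41.2% in anti-CTLA-4 mice and 42.1, 46.9, 30.0, 18.2 and 33.3% in isotype mice. Over the 10 mice it averaged 46.4% ± 19.2, against 0.428% ± 0.404 in lower-count clones (SD, n = 10), and it was higher in 10 of 10 mice. The difference of 45.9 percentage points passed the test (exact sign-flip permutation p = 0.00195, the smallest that 10 mice allow, adjusted p = 0.00977 over 10 measures). A larger clone gives more counts in which another class can be seen, and 61.5% of lower-count clones had a single IgM count. Set against lower-count clones with a best count of 10 to 99, which had switched rows in 22.8% on average, the difference was 23.5 percentage points (exact sign-flip permutation p = 0.00391, adjusted p = 0.0195).

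The share rose with clone size. It averaged 0.122% ± 0.134 in clones with a best count of 1, 0.795% ± 0.895 at 2 to 9, 22.8% ± 13.0 at 10 to 99 and 45.4% ± 17.4 from 100 to below 1000 (SD, n = 10 mice). At 1000 or more it averaged 71.4% ± 48.8 over the 7 mice that had such a clone. It was 100% in 5 of those mice, which had from 1 (anti-CTLA-4 mouse 5) to 10 (anti-CTLA-4 mouse 1) such clones. It was 0% in anti-CTLA-4 mouse 2, with 3 clones, and in isotype mouse 4, with 1, so this last mean rests on few clones.

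IgD, which naive B cells carry beside IgM, had 26 counts in all on high-count clones, against their 106948 IgM counts. Per 100 IgM counts there were 0.0228, 0, 0.0362, 0 and 0 IgD counts on high-count clones of anti-CTLA-4 mice 1 to 5, and 0, 0.0270, 0.386, 0 and 0 on those of isotype mice 1 to 5. Where none was seen, a count of 0 allows up to 0.0197 (isotype mouse 1) to 0.494 (isotype mouse 5) per 100. The mean was 0.0472 ± 0.120 on high-count clones and 1.05 ± 0.427 on lower-count clones (SD, n = 10), lower in 10 of 10 mice. This ratio was added after the data were seen, and its denominator is the count that chose the clones, so it is a description with no test. By clone rather than by count, IgD rows were found for 4.52% ± 7.41 of high-count and 1.30% ± 0.503 of lower-count clones, and this difference did not pass (exact sign-flip permutation p = 0.295, adjusted p = 0.421).

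**Figure D2:**
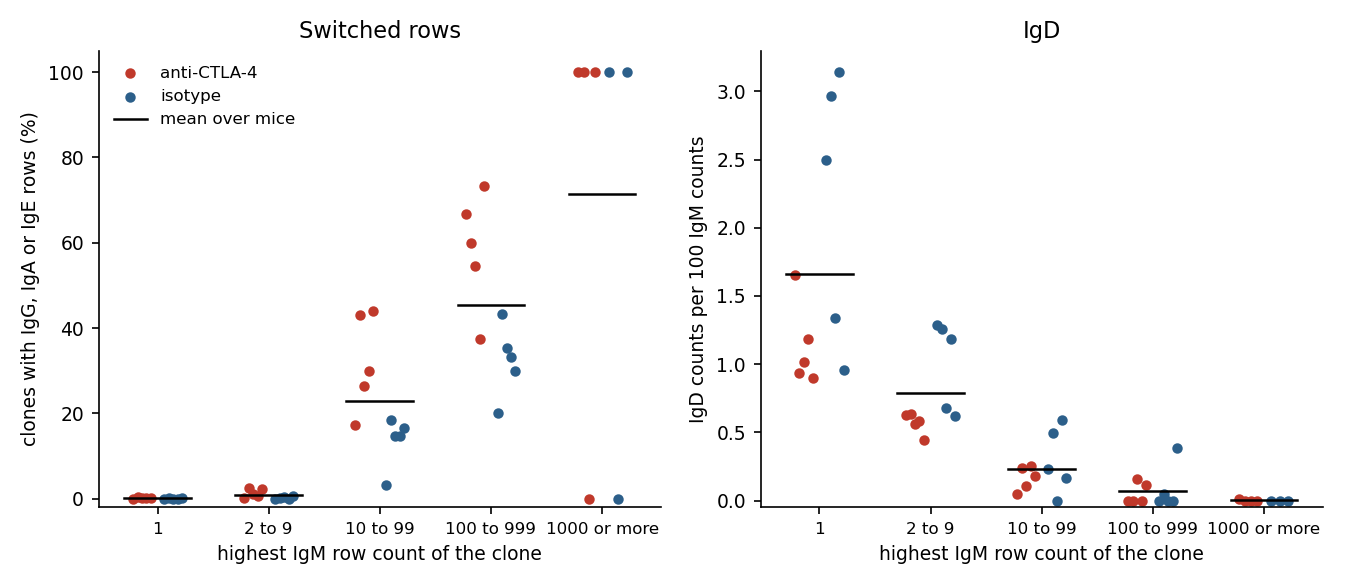
Left, share of IgM clones with IgG, IgA or IgE rows, and right, IgD counts per 100 IgM counts, by the highest IgM row count of the clone. Each point is a mouse, anti-CTLA-4 left of isotype in each bin, and lines are means over mice. The share with switched rows averages 0.122% at a count of 1 and 45.4% from 100 to below 1000, while mean IgD per 100 IgM counts is lower in each larger bin, a ratio whose denominator is the IgM count itself.

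The balance between classes differed widely among the 84 clones. Switched counts exceeded IgM counts in 49 clones and were at least 10 times as high in 13, and the median ratio was 1.46. In 12 clones the switched counts were under 10% of the IgM counts, as in the IGHV3-6 clone of anti-CTLA-4 mouse 1 with CDR3 ARDLDYGNYFDY, which had 5003 IgM and 2 IgG counts. ARMGRAFDY lay at the other end with 295 switched counts per IgM count.

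The clone with the most switched counts in each mouse was in most mice not the one with the most IgM. In anti-CTLA-4 mouse 3 an IGHV14-1 or IGHV14-2 clone, ARIHYGSYYAMDY, had 497 IgM and 37455 IgG counts. In anti-CTLA-4 mouse 5 an IGHV6-6 clone, TGYYGSSLAWFAY, had 904 IgM, 21477 IgG and 62 IgA counts. In isotype mouse 1 the largest IgM clone, ARRGSSPFDY, with 8030 IgM counts, also led in switched counts with 16291 of IgG.

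In isotype mouse 2 the leader depended on the V call. The IGHV2-9 clone AKHGSNYVDWYFDV had 522 IgM and 18580 IgG counts, the most of any single high-count clone there. The CDR3 ARSGDPYYFDY belonged to 2 high-count clones of that mouse with the same J gene and junction, one called IGHV14-1 or IGHV14-2 and the other IGHV14-2. They had 2837 and 108 IgM counts, and joined they held 2945 IgM and 18955 switched counts, the most among its high-count clones in both. No other high-count clones of 1 mouse shared a J gene and junction.

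The other mice had smaller switched leaders. Anti-CTLA-4 mouse 4 had an IGHV3-8 clone with 704 IgM and 2183 IgG counts. Isotype mouse 3 had the IGHV1-80 clone ARSGLLFYYAMDY, with 101 IgM and 332 IgG counts. Isotype mouse 5 had the IGHV4-1 clone ASLGYYGYFAV, with 183 IgM and 4 IgG3 counts.

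**Figure D3:**
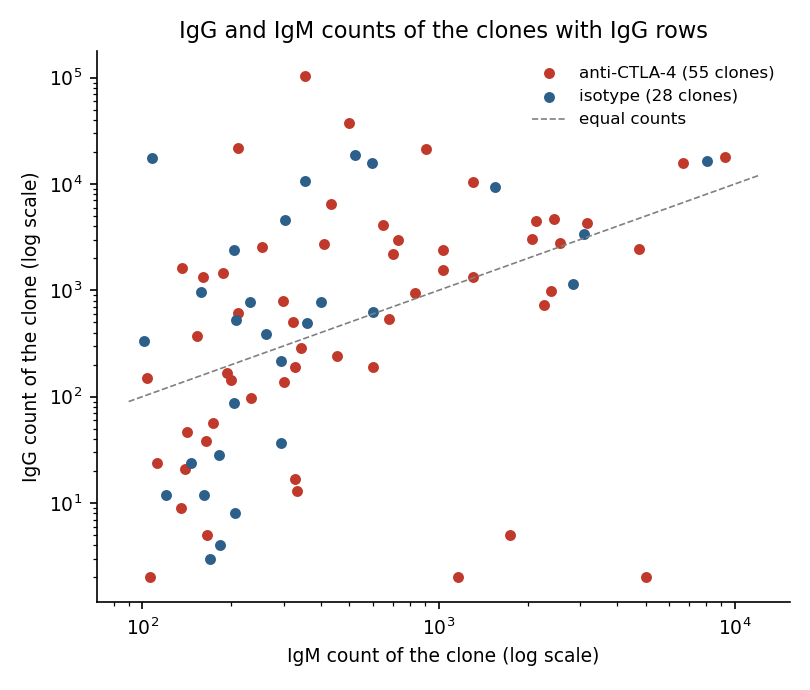
IgG count against IgM count (both log scales) of the 83 high-count clones with IgG rows, 55 in anti-CTLA-4 and 28 in isotype mice. The dashed line marks equal counts. IgG spans 2 to 104092 counts with no fixed ratio to IgM.

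High-count IgM clones accounted for much of the IgG in some mice and almost none in others. Of all IgG counts of the mouse, 58.5, 1.64, 34.7, 34.0 and 32.6% lay on high-count IgM clones in anti-CTLA-4 mice 1 to 5. In isotype mice 1 to 5 the shares were 39.0, 75.3, 0.640, 0.366 and 0.0361%. The groups overlapped, and no test was run on this share. In anti-CTLA-4 mouse 1, 104092 of the 168669 IgG counts on high-count clones lay in the ARMGRAFDY clone alone, which had 353 IgM counts.

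By subclass, 49.3% of the 393677 IgG counts on these clones were IgG2a/c, 39.4% IgG2b, 6.49% IgG1 and 4.76% IgG3. Pooled over clones, the leading pair had 152744 IgG2a/c and 102836 IgG2b counts in anti-CTLA-4 mice. In isotype mice the pooled order was the opposite, with 41490 IgG2a/c and 52091 IgG2b counts. The pools rest on few mice. IgG counts on high-count clones were 33122 and 71204 in isotype mice 1 and 2, but 377, 88 and 4 in isotype mice 3 to 5. In anti-CTLA-4 mice they ran from 1740 in mouse 2 to 168669 in mouse 1. No test was run on this order. The ARMGRAFDY clone alone held 26.4% of all IgG counts on high-count clones, and without it the anti-CTLA-4 clones had 92871 IgG2a/c and 63851 IgG2b counts. IgG2a/c had the most IgG counts in 41 clones, IgG2b in 32, IgG3 in 7 and IgG1 in 3. Both IgG2b and IgG2a/c rows were found in 61 of the 83 clones, and whether the calls part these similar genes cleanly was not tested. IgG3 led in the IGHV4-1 clone ARLGYYGWFAY of anti-CTLA-4 mouse 1, with 364 of 371 IgG counts. IgG1 led in the IGHV14-4 clone TDGYGRGAMDY of anti-CTLA-4 mouse 3, with 9116 of 21821 IgG counts.

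IgA and IgE were each found on 9 clones, and they were usually a small part of a clone that had IgG. IgA, the class of mucosal secretions, exceeded IgG in the IGHV1-81 clone ANYYGSSWFAY of anti-CTLA-4 mouse 2, with 455 IgM, 241 IgG and 1683 IgA counts. It was the only switched class of ARHGYSKGAMDY in isotype mouse 4, with 480 IgM and 197 IgA counts. IgA rows were found for 5.54% ± 6.14 of high-count and 0.0213% ± 0.0315 of lower-count clones (SD, n = 10), which did not pass after adjustment (exact sign-flip permutation p = 0.0313, adjusted p = 0.0781).

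IgE, the class that arms mast cells, had 2963 counts on 9 clones, all of which also had IgG. It was on 3 anti-CTLA-4 clones and 6 isotype clones, and 5 of the 6 were in isotype mouse 2. The highest IgE counts were 1028 on the IGHV1-50 clone ARFVWAMDY of isotype mouse 2 and 693 on the IGHV3-6 clone ARDDGYYGWYFDV of anti-CTLA-4 mouse 5. The second of these had 112 IgM and 24 IgG counts, so IgE was its leading class.

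The share of high-count clones with switched rows was compared between treatments, the question being whether CTLA-4 blockade went with more switching among them. It averaged 58.6% ± 18.2 in anti-CTLA-4 mice and 34.1% ± 11.2 in isotype mice (SD, n = 5 each), and the values overlapped. The difference of 24.5 percentage points did not pass the threshold (exact permutation p = 0.0556 and, over the 10 measures, adjusted p = 0.278). For IgG rows alone the means were 58.6% ± 18.2 and 32.3% ± 14.6, with the same p and adjusted p by the exact permutation test. Pooled over clones, 55 of 88 anti-CTLA-4 and 29 of 75 isotype clones had switched rows, but clones of 1 mouse are not independent.

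Most high-count clones matched the germline V gene. The best row of 141 clones (86.5%) had no V mismatch over at least 200 aligned nucleotides. All 22 clones with a mismatch were in 4 mice, 5 in anti-CTLA-4 mouse 4, 13 in isotype mouse 2, 3 in isotype mouse 4 and 1 in isotype mouse 5. The other 6 mice had 0 of 105 clones.

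Part of these mismatches were shared with lower-count clones of the same V call. T279G (the germline base, its position counted from 1 at the start of the germline V sequence in the deposited alignment, and the clone's base) was in all 4 IGHV1-69 clones and in 99.9% of 5666 lower-count IGHV1-69 clones. The clones ARCTTVVVPDY in anti-CTLA-4 mouse 4 and ARGYYDFFMDY in isotype mouse 2, both with the joint call IGHV14-1 or IGHV14-2, had 12 and 8 mismatches. They shared substitutions such as C198A and G115A, which were in 42.0 and 41.9% of the 4404 lower-count clones of that call. Whether such positions are germline differences was not tested.

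Other mismatches were rare in lower-count clones. In isotype mouse 2 the IGHV1-64 clones ARGDWPFYFDY and ARGDWPYYFDY, with 5 and 3 mismatches, belonged to 1 lineage at 90% junction identity and shared G169C, which was in 0 of 8302 lower-count IGHV1-64 clones. That mouse held all 3 lineages with more than 1 high-count clone, counting the ARSGDPYYFDY clones apart because their first-listed V genes differ. The 23 clones with a best count of 1000 or more included 1 with a mismatch, the IGHV14-4 clone TSTGLFAY of isotype mouse 2, with 0.340 mismatches per 100 nucleotides.

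Mismatch frequency did not differ detectably from that of lower-count clones. It averaged 0.174 ± 0.276 per 100 nucleotides in high-count and 0.135 ± 0.0149 in lower-count clones (SD, n = 10; exact sign-flip permutation p = 0.719, adjusted p = 0.799), and its sign depended on the count minimum. Between treatments it averaged 0.0872 ± 0.195 in anti-CTLA-4 and 0.261 ± 0.338 in isotype mice (SD, n = 5 each; exact permutation p = 0.405, adjusted p = 0.675).

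Some V genes took a larger share of high-count than of lower-count clones. IGHV11-2, which B-1 cells often use in antibodies to phosphatidylcholine, was the V gene of 7 high-count clones (4.29%) and 0.130% of lower-count clones. IGHV4-1 was used by 8 (4.91%) and 0.524%, and IGHV7-3 by 6 (3.68%) and 0.336%. IGHV3-5 had the highest ratio of shares of all V calls, with 3 clones in 2 mice (1.84%) and 0.0328% of lower-count clones. Its rearrangement ARYDGYFDY was counted only in its assigned mouse, isotype mouse 4. It also had 205 IgM counts in isotype mouse 3, 222 in isotype mouse 5 and 55 in anti-CTLA-4 mouse 3. The most used V gene, IGHV3-6, had 11 clones in 9 mice (6.75%), against 4.38% of lower-count clones, and IGHV8-12 had 9 (5.52%), against 3.02%. The IGHV1 family, the largest in the locus, held 46.6% of high-count and 64.1% of lower-count clones.

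In edgeR's quasi-likelihood test on clone numbers with the mouse as a block and no scaling beyond clone totals, 3 of 75 V calls tested were higher in high-count clones (4.00%) and none was lower (0%). They were IGHV11-2 with a log2 fold change of 5.12 (SE 0.75, adjusted p = 1.47e-07 in edgeR), IGHV4-1 with 3.25 (SE 0.55, adjusted p = 0.000121) and IGHV7-3 with 3.49 (SE 0.66, adjusted p = 0.000535). High-count clones of these genes were in 5, 6 and 4 of the 10 mice. IGHV3-5 had too few clones to pass the filter, and in the fit with no filter it passed too (log2 fold change 5.81, SE 1.10, adjusted p = 0.00078 in edgeR), making 4 calls of 146. TMM scaling, which was planned for this fit, instead called 53 of 75, with 1 higher (IGHV11-2) and 52 lower, and was replaced after both results were seen because it called unchanged V genes in simulated data with libraries this small.

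These calls were not stable. None of the 3 passed an exact sign-flip permutation test of shares over mice (adjusted p = 0.156 for IGHV11-2, 0.0901 for IGHV4-1 and 0.284 for IGHV7-3), and no V call passed with a count minimum of 200, where IGHV11-2 had too few clones to be tested. No V call passed in edgeR, run with no filter, against the 993 lower-count clones with counts of 10 to 99 either. IGHV11-2 made up 1.91%, IGHV4-1 2.72% and IGHV7-3 2.92% of those clones, and the log2 fold change of IGHV11-2 against them was 1.35 (SE 0.70).

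The 3 V calls with the smallest p among those lower in high-count clones did not pass. IGHV1-82 was used by 1 high-count clone (0.613%, against 3.77% of lower-count clones, adjusted p = 0.172 in edgeR). That clone was in anti-CTLA-4 mouse 4, and without that mouse IGHV1-82 passed as lower (adjusted p = 0.0126 in edgeR), with no high-count clone left. The joint call IGHV1-62-3 or IGHV1-72 was used by 2 (1.23%, against 3.99%, adjusted p = 0.385 in edgeR). IGHV1-78 was used by none.

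**Figure D4:**
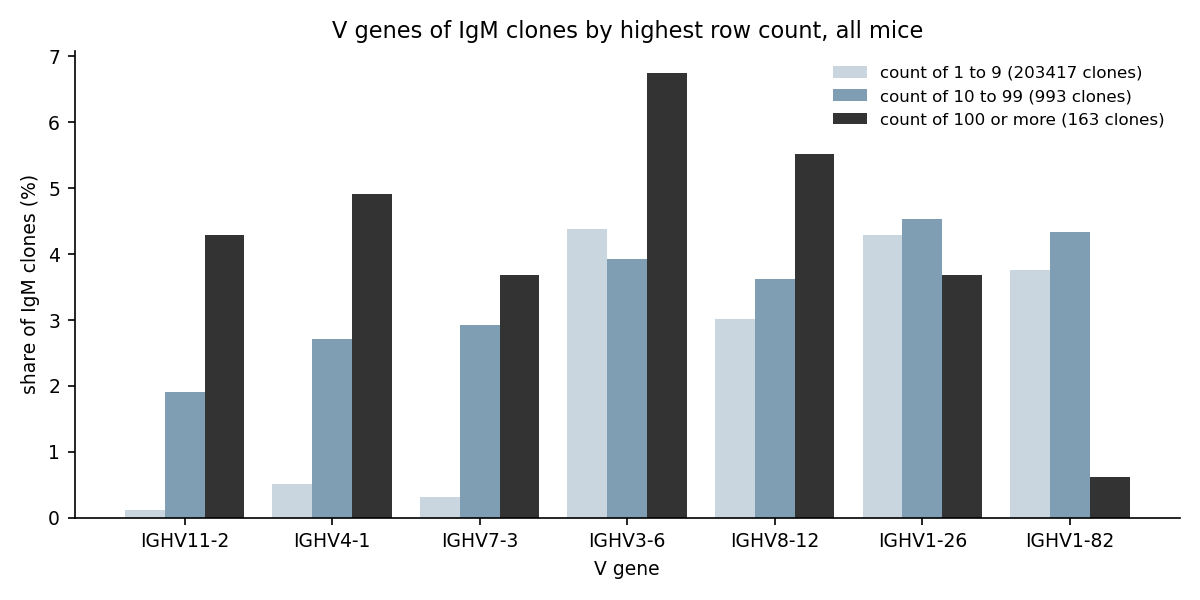
Share of IgM clones (%) with each of 7 V genes, for clones with a highest row count of 1 to 9, 10 to 99 and 100 or more, pooled over 10 mice. IGHV11-2, IGHV4-1 and IGHV7-3 have higher shares in each larger bin, and 1.91, 2.72 and 2.92% of clones already carry them at 10 to 99.

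The listed B-1 V genes were represented by IGHV11-2 and by 1 IGHV7-1 clone, ARDYYGSSYWYFDV, with 115 IgM counts in isotype mouse 1. IGHV7-1 is known from antibodies to phosphorylcholine. No high-count clone used IGHV11-1 or IGHV12-3, and 0 of 163 allows a share of up to 1.84% each if clones are taken as independent. Their shares of lower-count clones, 0.00440% and 0.0841%, lay well below that limit, so their absence does not set high-count clones apart. The listed genes made up 0, 25.0, 5.26, 0 and 0% of high-count clones in anti-CTLA-4 mice 1 to 5, and 10.5, 3.13, 20.0, 0 and 0% in isotype mice 1 to 5. Their share averaged 6.39% ± 9.22, against 0.399% ± 0.0506 in lower-count clones (SD, n = 10), and did not pass (exact sign-flip permutation p = 0.0625, adjusted p = 0.104). These shares count a rearrangement only in its assigned mouse. The IGHV11-2 rearrangement MRYSNYWYFDV had 203 IgM counts in anti-CTLA-4 mouse 1 and 152 in isotype mouse 2. It was assigned to isotype mouse 3, where it had 200 IgM and 5 IgD counts.

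The 7 IGHV11-2 clones were alike in structure. All 7 used IGHJ1 and had no V mismatch, and 1 had switched rows. The CDR3 MRGTGWYFDV was that of 3 high-count clones, each in a different mouse and each encoded by a different junction, shown here because the same protein arose from different bases.
anti-CTLA-4 3: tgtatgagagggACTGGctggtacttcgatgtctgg
isotype 1: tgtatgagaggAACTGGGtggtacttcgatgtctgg
isotype 2: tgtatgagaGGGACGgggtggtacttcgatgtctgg
Their IgM counts were 113 in anti-CTLA-4 mouse 3, 401 in isotype mouse 1 and 237 in isotype mouse 2. The clone of isotype mouse 1 was the one with switched rows, and 748 of its 775 IgG counts were IgG3.

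Another 3 IGHV11-2 rearrangements recurred in nearly every mouse with the identical junction. MRYGSSYWYFDV had 67, 1765, 11, 7 and 25 IgM counts in anti-CTLA-4 mice 1 to 5 and 43, 20, 33, 34 and 98 in isotype mice 1 to 5. MRYSNYWYFDV had 203, 35, 14, 85 and 41 in anti-CTLA-4 mice and 71, 152, 200, 50 and 62 in isotype mice. MRYGNYWYFDV was found in 9 mice, with 117 IgM counts in anti-CTLA-4 mouse 2, where it was high-count, and 2 to 76 in the other 8. None of the 3 had an IgG, IgA or IgE count in any mouse.

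For none of the 3 was one group uniformly above the other. MRYSNYWYFDV had 200 or more counts in both anti-CTLA-4 mouse 1 and isotype mouse 3. The files name no D gene for the 3 junctions. The bases between V and J, 9, 6 and 6 in number, were found in sequence aligned to IGHD1-1, to IGHD2-5 or IGHD2-6, and to IGHD2-8, in the order MRYGSSYWYFDV, MRYSNYWYFDV and MRYGNYWYFDV.

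**Figure D5:**
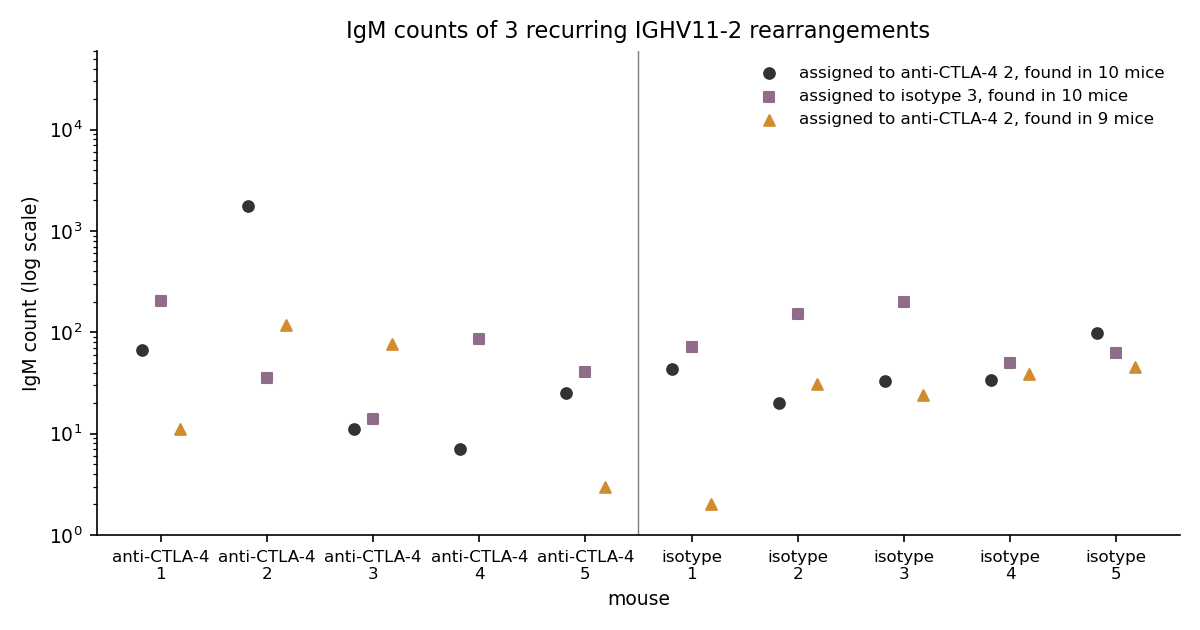
IgM counts (log scale) by mouse of the 3 IGHV11-2 rearrangements found in 9 or 10 mice, named in the legend by the mouse they were assigned to. Anti-CTLA-4 mouse 2 has 1765 counts of the first, and the other values lie between 2 and 203 in both groups.

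Among the IGHV3 family, ASYSNFDY (IGHV3-6) was high-count in isotype mouse 4 with 1228 IgM counts. The same junction had 2, 255 and 137 IgM counts in anti-CTLA-4 mice 2, 4 and 5 and 1018 in isotype mouse 1. In anti-CTLA-4 mouse 2 it also had 80 IgG counts. ASYSNYDY (IGHV3-6) was found in 6 mice and ARYDGYFDY (IGHV3-5) in 5. The latter had 12 IgA counts in anti-CTLA-4 mouse 4 and 2 in isotype mouse 5. In all 3 junctions the files give no base between V and D or between D and J.

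Clones without such added bases (N nucleotides), which the enzyme TdT inserts at the joins in most adult rearrangements, were compared where a D gene was named. The share was 3.57, 20.0, 5.88, 0 and 13.3% of high-count clones in anti-CTLA-4 mice 1 to 5, and 6.25, 8.33, 0, 40.0 and 0% in isotype mice 1 to 5. It averaged 9.74% ± 12.4, against 1.13% ± 0.0627 in lower-count clones (SD, n = 10). It did not pass after adjustment (exact sign-flip permutation p = 0.0176, adjusted p = 0.0586). Pooled, 12 of 134 high-count clones with a D gene had none.

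CDR3 loops of high-count clones ran over 5 to 19 residues with a median of 11. The mean over mice was 11.2 ± 0.857 residues in high-count and 11.8 ± 0.0400 in lower-count clones (SD, n = 10), a difference that did not pass (exact sign-flip permutation p = 0.0527, adjusted p = 0.104). Between treatments the means were 11.2 ± 0.608 in anti-CTLA-4 and 11.1 ± 1.13 in isotype mice (SD, n = 5 each; exact permutation p = 0.857, adjusted p = 0.921). IGHJ1 was used by 22.7% of high-count and 15.5% of lower-count clones, and IGHJ3 by 16.6 and 24.6%.

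No V gene differed detectably between treatments among high-count clones. The most used V call had 11 high-count clones over 10 mice, so a lack of calls does not show equal use. In edgeR's quasi-likelihood test with no filter, 0 of 58 V calls passed (0%), DESeq2 also called 0, and in edgeR 3 had p under 0.05 before adjustment. IGHV1-74 and IGHV9-3 each had 4 high-count clones in anti-CTLA-4 mice and 0 in isotype mice, and IGHV3-5 had 0 in anti-CTLA-4 mice and 3 in isotype mice (adjusted p = 0.407 for each in edgeR).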

How the data were processed

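Per the labels' protocols, RNA from whole cells of the dissociated nodes was made into libraries with a mouse B cell receptor kit that adds molecular identifiers. The authors deposited 1 table per mouse with a whole-number count per assembled sequence, per the file headers. No source used here names the aligner, germline set, genome build or treatment of identifiers. The lengths of added bases are the deposited np1 and np2 values.

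Productive heavy-chain rows were grouped into clones by V call, J gene and junction. Ties between mice (335 lower-count clones, no high-count clone) went to the first-listed mouse. V mismatches were counted in the most counted IgM row over at least 200 nucleotides. All 60 V gene names of high-count clones were in the gene table. Groups were compared by exact permutation over 5 and 5 mice (smallest p 0.00794), and high-count with lower-count clones by exact sign-flip within mice (smallest p 0.00195), each adjusted by Benjamini-Hochberg over 10 measures at a threshold of 0.05. The measures between groups include 3 of clone number and size, which the choice of clones used and for which no p is given. V calls were tested with edgeR 4.0.16 (DESeq2 1.42.0 as an alternative) in R 4.3.3.

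The V gene fits depart from the plan. TMM was planned and was run first. After its result and the unscaled result were both seen, simulated data with known changes showed TMM calling unchanged V genes, and the unscaled fit became the reported one. The simulation was then revised to alter fewer V genes, and TMM still called unchanged ones. DESeq2 was likewise moved to size factors from clone totals. The filter left no V call between treatments, so that fit has none.

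The clones, gene lists and tests were chosen with earlier results of these data known. The text names V calls past the threshold, or the 3 with the smallest p in a direction where fewer than 3 pass, the most used V calls, the B-1 list (IGHV7-1, IGHV11-1, IGHV11-2, IGHV12-3), leading and leading switched clones, clones with IgE, and recurring clones. Other clones were named after their values were seen. The replicate numbers did not pair the mice (correlations of deviations -0.55 to 0.69).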

Additional observations from a re-analysis of the deposited data

Results flagged for a closer look

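The measures were examined for a mouse far from the others in 31 sets, and 5 stood out. For normally spread values chance flags about 1 in 20 such sets. That rate does not hold where all other mice share 1 value, and sets made from the same clones are not independent. Anti-CTLA-4 mouse 4 stood apart from the other 4 anti-CTLA-4 mice with 0.436 V mismatches per 100 nucleotides in high-count clones, where the others had 0, and so with 58.3% of clones without a mismatch, where the others had 100%. In the same mouse, clones with minus clones without switched rows differed by -0.798 mismatches per 100 nucleotides, the farthest of 8 mice. Among its clones without switched rows only ARCTTVVVPDY, with 12 mismatches (3.87 per 100 nucleotides), had any. Part of the mismatches of this mouse were thus substitutions shared with lower-count clones, such as C198A in ARCTTVVVPDY and T279G in its IGHV1-69 clones. Its less shared substitutions were A368C, C370G, T372G, G376C, A380G and A384G, all at positions 368 to 384. Each was in 0.246 to 1.48% of lower-count clones of its V call. Anti-CTLA-4 mouse 2 had a share of 25.0% of B-1 V genes, resting on 2 of its 8 clones. Isotype mouse 4 had the largest excess of clones with no added bases, 38.8 percentage points over its lower-count clones.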

How the results depend on the processing

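The higher share of switched rows in high-count clones kept its direction and passed under every alternative run (41.4 to 49.0 percentage points for all switched or IgG rows with 1 mouse left out). Between treatments no measure passed under any alternative, leaving aside the 3 of clone number and size, which are a description with no test. With a minimum of 50, 5 V calls passed in edgeR and with 200, 0. DESeq2 called 26 of 75 V calls, all higher, TMM 53, and the exact sign-flip of shares 22, all lower. In that sign-flip test a V call with no high-count clone, such as IGHV1-78, could only be lower. Its outcome was thus fixed by the small number of high-count clones, and no lower use is concluded from it. The comparator of 10 to 99 with no filter called 0. With no filter 4 of 146 passed, IGHV3-5 added. With the filter that comparator could not be fitted. Leaving out 1 mouse gave 2 to 4, and IGHV11-2 failed the filter and was not tested without anti-CTLA-4 mouse 2, isotype mouse 2 or isotype mouse 3, with the scaled minimum and by CDR3 amino acids.

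Results within mice that did not pass reached the threshold under some settings. With a minimum of 50 these were IgA rows (4.62 percentage points), CDR3 length (-0.515 residues), no added bases (7.60 points) and B-1 V genes (5.12 points). With a minimum scaled to depth they were IgA rows (7.30), CDR3 length (-0.677) and no added bases (10.95). With no assignment between mice they were IgA rows (7.45), CDR3 length (-0.841), no added bases (14.4) and B-1 V genes (6.24). By CDR3 amino acids no added bases passed (9.16), and with a minimum of 200 clones with no mismatch did (11.3). With 1 mouse left out, CDR3 length ranged over -0.796 to -0.457 and no added bases over 5.25 to 9.70, passing without isotype mouse 3. IGHV7-3 did not pass without anti-CTLA-4 mouse 5 (2.63), and IGHV1-82 passed as lower without anti-CTLA-4 mouse 4.

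Signs that turned were all of differences that did not pass, or of the number of clones, which is a description with no test. Mismatches, high-count minus lower-count, were -0.0309 at a minimum of 50 and -0.0881 at 200, and -0.0301 to 0.0628 with 1 mouse left out. Mismatches of clones with minus without switched rows were 0.0263 at 50, 0.122 at 200 and 0.0570 at the scaled minimum, and -0.114 to 0.0193 with 1 mouse left out. IgD rows were -0.0273 points against clones of 10 to 99. Anti-CTLA-4 minus isotype, the number of clones was -1 to 6.85 and CDR3 length -0.210 to 0.558 with 1 mouse left out (-0.239 at a minimum of 200). The B-1 share was 1.71 when clones were assigned by IgM counts, chosen after the data were seen, and -5.41 to 2.64 with 1 mouse left out. In edgeR the joint call IGHV1-62-3 or IGHV1-72 was 0.17 against clones of 10 to 99, and IGHV9-3 was -0.068 between treatments at a minimum of 50. The cause of these changes was not tested. The replicate block left the switched-row difference at 24.5 points (exact permutation p = 0.188) and 0 V calls, and changed no call.

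The main limits are 3 to 32 clones per mouse, counts of unstated kind, and switched rows that are easier to see in larger clones.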
